A study of Mus musculus with 6 samples.

Results

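The Polycomb and Trithorax group genes encode the protein machines that keep developmental genes silent or active. The 47 genes considered here were chosen by their known function, with earlier results of these data already known. They are subunits of the Polycomb complexes PRC1 and PRC2, subunits of the methyltransferase complexes of the Trithorax group, and the demethylases that oppose them. A gene was measured where a probeset of the array carried its symbol alone, and where several did, the one of highest average level across all 6 arrays was taken. This gave 46 of the 47 genes among 19938 genes in all. Cbx6 was not used because its probeset is shared with other genes.

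The cells were E14 mouse embryonic stem cells grown with the cytokine LIF in serum-containing medium on a layer of embryonic fibroblasts made unable to divide by mitomycin C. Both compounds are short-chain fatty acids that inhibit histone deacetylases. Cells received 0.5 mM valproic acid (VPA) or 0.2 mM sodium butyrate (NaBu) for 16 h, or were left untreated (control), with 2 samples per condition and 1 array per sample. The labels number the samples 1 and 2 within each condition without saying that they are separate cultures. The arrays numbered 1 are called set 1 and those numbered 2 set 2, and values are log2 intensities as the authors normalized them. All results come from 1 cell line, and since RNA was taken from the whole culture, fewer cells of a type and less RNA per cell cannot be told apart.

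PRC2 places methyl groups on lysine 27 of histone H3 (H3K27) through its catalytic subunits Ezh2 and Ezh1, and PRC1 attaches ubiquitin to histone H2A through Ring1 and Rnf2. Complexes of the Trithorax group methylate lysine 4 of histone H3 (H3K4), a mark of active promoters. In embryonic stem cells many promoters of developmental regulators carry both marks at the same time, and PRC1 comes in canonical forms with a Cbx subunit and in variant forms with Rybp or Yaf2.

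A principal component analysis put 53.6% of the variance on an axis that separated set 1 from set 2. On the second axis, with 22.15%, VPA of set 1 lay apart at -26.6, against -4.9 for VPA of set 2. The NaBu and control arrays lay from 4.0 to 12.2 on it. Why VPA of set 1 lay apart was not tested. Feeder fibroblast markers averaged 6.32, 6.59 and 6.49 in VPA, NaBu and control of set 1, against 7.24, 7.33 and 7.07 in set 2, so they were higher in set 2 in every condition. All 12 stem cell markers were measured, among them Pou5f1, Nanog and Sox2, and their means were 10.39 and 10.32 in VPA, 10.79 and 10.51 in NaBu and 10.83 and 10.57 in control (sets 1 and 2). Differences are therefore given within each set as well as between group means. A model with the set as a block (the replicate block) stands beside the unblocked one where it changes a count of members. Some intervals are also given with this block. Of the 46 members, 44 lay at or above the median gene by mean level.

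After VPA, Polycomb and Trithorax members lay more often below control than above it. Of the 46 members, 33 had a mean log2 difference below 0, or 71.7%, against 47% of all genes. Their median was -0.09, with -0.09 in set 1 and -0.04 in set 2, while the median of all genes was 0.01. The lowest difference was that of Kdm2b at -0.62 and the highest that of Pcgf5 at 0.32. The members below 0 in both sets numbered 23 of 46 (50%), against 28% of all genes and 35.4% of the 9969 genes at or above the median level. The median was -0.03 without control replicate 1, -0.18 without control replicate 2 and -0.04 without VPA replicate 2, in fits with no block.

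No member passed a test across all genes. limma called 0 of 46 members and 0% of the 19938 genes at an adjusted p under 0.05 for VPA against control, with a smallest adjusted p of 0.964. At an unadjusted p under 0.05 it took 2 members, Pcgf2 and Kdm2b, or 4.35%, and 4.92% of all genes. With both directions together the members thus stood at the background. Both members were lower, while of all genes 434 were lower and 547 higher. With the replicate block limma again called 0 members and 0% of genes at an adjusted p under 0.05, with a smallest adjusted p of 0.201. At an unadjusted p under 0.05 the blocked model took 7 members (15.2%) and 13.2% of all genes. With both directions together this is also near the background. The 7 were Phf19, Pcgf2, Kdm2b, Wdr5, Dpy30 and Kdm6a, all lower, and Pcgf5, higher. Of all 19938 genes the blocked model took 1198 lower and 1438 higher. Without a block the count of 2 became 0 on leaving out control replicate 1 (1.69% of all genes), VPA replicate 1 (2.53%) or VPA replicate 2 (5.82%). It became 6 on leaving out control replicate 2 (4.63% of all genes).

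Counted by direction within the sets, 8 members were at least 0.2 lower with VPA in both sets, or 17.4%, against 5.51% of all genes. They were Rbbp4, Phf19, Pcgf2, Phc1, Kdm2b, Kmt2d, Wdr5 and Dpy30. No member was at least 0.2 higher in both sets, against 6.47% of all genes. In the brighter part of the array, the genes at or above the median level, 7 of 44 members (15.9%) and 8.47% of genes were lower in this way. At a size of 0.3 in place of 0.2 the count was 5, against 2.14% of all genes. This count carries no test. Of the 8, 7 had the larger difference in set 1, and 6 were also lower in set 2 than in set 1 in every condition. The stem cell markers lay below control in both sets for 11 of 12 genes, and the part of these measures in the members' values was not tested.

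**Figure D1:**
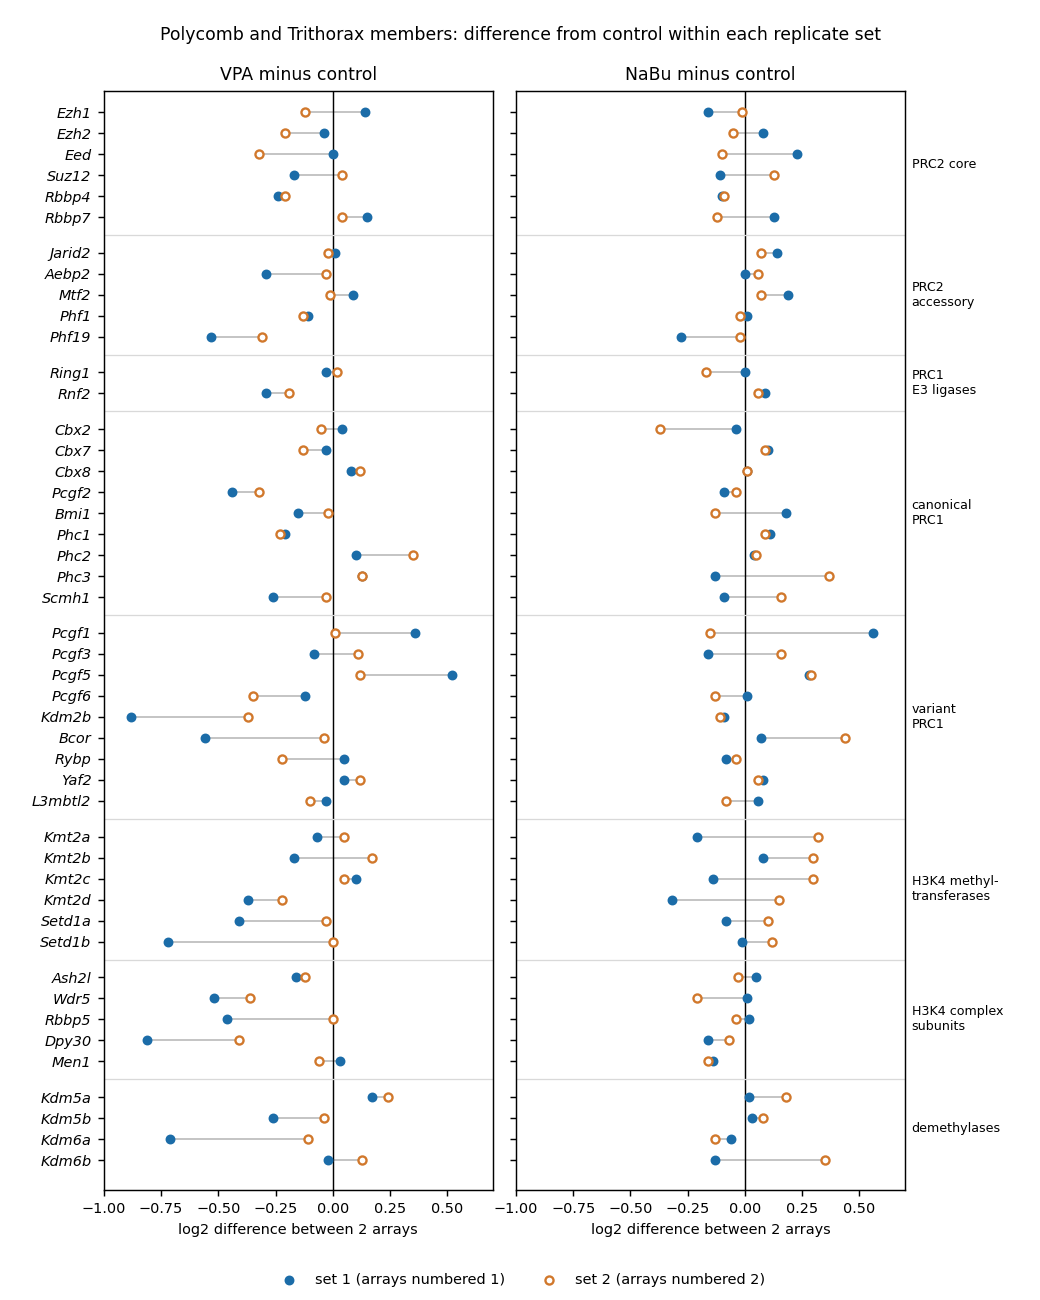
Log2 difference from control of each of the 46 members, for VPA (left) and NaBu (right), within set 1 (filled points) and set 2 (open points), grouped by role. Kdm2b, Dpy30, Wdr5, Phf19 and Pcgf2 lie left of 0 in both sets with VPA, from -0.88 for Kdm2b to -0.31 for Phf19, while the same genes lie between -0.28 and 0.01 with NaBu. These genes were picked for their VPA values, so smaller sizes with NaBu can come from that choice alone.

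Promoters are shown for the 5 members that were at least 0.3 lower with VPA in both sets: Kdm2b and Dpy30, each at the most upstream of its 4 listed starts, and Phf19, Pcgf2 and Wdr5, which have 1 listed start each. The sequences are from RefSeq (GRCm38.p6) and give the 250 bases before the start, 5′ to 3′ on the gene's strand. Capitals mark matches to the GC box GGGCGG, the binding letters of Sp1, to CCAAT, to the E-box CACGTG and to the octamer ATGCAAAT of Oct4, each on either strand. Kdm2b lies at chr5:122989100-122989349 (minus strand), Dpy30 at chr17:74323945-74324194 (minus strand), Phf19 at chr2:34913977-34914226 (minus strand), Pcgf2 at chr11:97699649-97699898 (minus strand) and Wdr5 at chr2:27514897-27515146 (plus strand).
Kdm2b: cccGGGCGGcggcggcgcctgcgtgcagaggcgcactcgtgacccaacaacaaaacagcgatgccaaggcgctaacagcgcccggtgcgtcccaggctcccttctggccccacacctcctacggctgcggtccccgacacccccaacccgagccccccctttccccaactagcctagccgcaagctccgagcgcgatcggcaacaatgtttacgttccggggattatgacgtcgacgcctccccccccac
Dpy30: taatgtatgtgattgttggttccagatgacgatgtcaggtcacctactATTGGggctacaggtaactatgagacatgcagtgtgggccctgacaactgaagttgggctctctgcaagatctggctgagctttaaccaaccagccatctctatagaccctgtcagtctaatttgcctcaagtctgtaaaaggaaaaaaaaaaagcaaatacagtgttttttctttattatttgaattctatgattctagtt
Phf19: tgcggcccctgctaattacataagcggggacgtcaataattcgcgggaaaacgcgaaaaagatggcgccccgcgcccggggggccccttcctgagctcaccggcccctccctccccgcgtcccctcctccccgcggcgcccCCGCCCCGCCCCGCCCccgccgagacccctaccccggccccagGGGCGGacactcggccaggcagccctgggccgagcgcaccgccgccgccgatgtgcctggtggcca
Pcgf2: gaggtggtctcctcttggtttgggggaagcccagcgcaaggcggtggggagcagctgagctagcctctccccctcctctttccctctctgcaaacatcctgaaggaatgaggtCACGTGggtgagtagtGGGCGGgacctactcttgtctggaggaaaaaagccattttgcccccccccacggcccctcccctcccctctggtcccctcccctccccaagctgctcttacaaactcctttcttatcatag
Wdr5: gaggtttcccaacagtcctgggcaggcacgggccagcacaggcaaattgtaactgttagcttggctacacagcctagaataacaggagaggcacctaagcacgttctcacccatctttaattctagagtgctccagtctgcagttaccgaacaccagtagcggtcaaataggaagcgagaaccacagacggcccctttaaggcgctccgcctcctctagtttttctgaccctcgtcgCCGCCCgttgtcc

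None of the motifs is found in all 5 windows. Kdm2b, Pcgf2 and Wdr5 hold 1 GC box each, Phf19 holds 4, of which 3 overlap, and Dpy30 holds 0. Dpy30 holds 1 CCAAT box and Pcgf2 holds 1 E-box. The windows contain 27 CG dinucleotides in Kdm2b, 1 in Dpy30, 31 in Phf19, 5 in Pcgf2 and 12 in Wdr5. A promoter was listed for 37 of the 46 members, and by the most upstream start 26 of these 37 held a GC box (70.3%), 11 a CCAAT box (29.7%) and 7 an E-box (18.9%). Of all 32851 listed promoters, 32.7%, 33.8% and 6.02% held these letters. The octamer was found in 0 of the 37, against 1.6% of all. Members' windows had a median of 21 CG dinucleotides, against 6 over all listed promoters, which include those of noncoding genes. These counts describe letters in a window, and no binding or methylation was measured here.

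The 6 genes of the PRC2 core had differences from -0.23 to 0.09 with VPA. Ezh2, the main H3K27 methyltransferase of stem cells, read 10.49 and 10.32 in VPA cells, 10.61 and 10.48 in NaBu cells and 10.53 and 10.52 in control. Its difference with VPA was -0.12 (95% interval -0.42 to 0.18, adjusted p 0.972). Eed, which binds the methylated histone tail, read 9.88 and 9.50 in VPA cells, 10.11 and 9.71 in NaBu cells and 9.88 and 9.81 in control. Both VPA arrays of Ezh2 lay below both control arrays, whereas for Eed VPA and control were level in set 1 and the groups overlapped. Suz12, the scaffold subunit, read 10.29 and 10.17 in VPA cells, 10.34 and 10.26 in NaBu cells and 10.46 and 10.13 in control, and the 3 conditions overlapped. The histone chaperone Rbbp4 stood at -0.24 and -0.21 within the sets, while its paralog Rbbp7 stood at 0.15 and 0.04. Ezh1, the other catalytic subunit, had a mean difference of 0.01.

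Among the PRC2 accessory subunits, Phf19 was the one with a difference over 0.3. Phf19, a Tudor-domain protein that helps bring PRC2 to chromatin, read 5.58 and 5.20 in VPA cells, 5.82 and 5.50 in NaBu cells and 6.11 and 5.52 in control. It was lower with VPA in each set, but VPA of set 1 lay above control of set 2, so the groups overlapped. The difference was -0.42 (95% interval -1.01 to 0.17, adjusted p 0.964), and -0.69 to -0.15 with the replicate block (adjusted p 0.222). Leaving out 1 array gave -0.71 to -0.12, in fits with no block, as for the ranges of other members. Its level lay just below the median gene. Jarid2 and Mtf2, the accessory subunits that define the 2 main forms of PRC2 in stem cells, stood at -0.00 and 0.04. Aebp2, a partner of Jarid2, stood at -0.16 and Phf1, a relative of Mtf2, at -0.12, and the Aebp2 value came from set 1 (-0.29) more than from set 2 (-0.03).

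Of the 2 ubiquitin ligases of PRC1, Rnf2 stood below control with VPA in both sets and Ring1 in set 1 alone. Rnf2 (Ring1B), the main ligase of stem cells, read 8.85 and 8.55 in VPA cells, 9.24 and 8.80 in NaBu cells and 9.14 and 8.74 in control. Its difference from control was -0.24 (95% interval -0.77 to 0.29, adjusted p 0.971), and the groups overlapped. Ring1 stood at -0.03 and 0.02 within the sets.

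In canonical PRC1, Pcgf2 and Phc1 were lower with VPA in both sets. Pcgf2 (Mel18), a RING-finger partner of Rnf2, read 7.17 and 7.12 in VPA cells, 7.52 and 7.40 in NaBu cells and 7.61 and 7.43 in control. Both VPA arrays lay below the other 4. The difference from control was -0.38 (95% interval -0.68 to -0.08, adjusted p 0.964), or 0.77 of the control level. With the replicate block the interval was -0.63 to -0.13 (adjusted p 0.229). Phc1, a polyhomeotic protein that lets PRC1 complexes join into larger assemblies, read 10.03 and 9.98 in VPA cells, 10.35 and 10.31 in NaBu cells and 10.24 and 10.21 in control. Its 3 conditions did not overlap, and the difference of VPA from control was -0.22 (95% interval -0.48 to 0.04, adjusted p 0.964). The other polyhomeotic genes stood above control, with Phc2 at 0.22 (0.10 and 0.35 in the sets) and Phc3 at 0.13 (0.13 in both). The chromobox genes, whose proteins read methylated H3K27, stood near control, with Cbx7, the main one of stem cells, at -0.08, Cbx2 at -0.00 and Cbx8 at 0.10. Bmi1, the paralog of Pcgf2, stood at -0.09 and Scmh1, a homolog of the fly gene Sex comb on midleg, at -0.15.

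Variant PRC1 held both the lowest and the highest difference of the list. Kdm2b, whose CXXC domain brings a PRC1 complex to unmethylated CpG islands, read 7.86 and 7.89 in VPA cells, 8.65 and 8.15 in NaBu cells and 8.74 and 8.26 in control. Both VPA arrays lay below the other 4, and they differed by 0.03 from each other. The difference from control was -0.62 (95% interval -1.17 to -0.08, adjusted p 0.964), or 0.65 of the control level, with -0.88 in set 1 and -0.37 in set 2. Without 1 array it lay between -0.86 and -0.38. With the replicate block the interval was -0.97 to -0.28 (adjusted p 0.202). The promoter window printed for Kdm2b holds 27 CG dinucleotides and that of Pcgf2, also lower in both sets, holds 5.

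Bcor and Pcgf1 act with Kdm2b in the same PRC1 complex. Bcor, a corepressor, read 6.11 and 6.18 in VPA cells, 6.74 and 6.67 in NaBu cells and 6.67 and 6.22 in control. VPA lay just below control in set 2 and well below it in set 1 (-0.04 and -0.56), with a mean of -0.30 (95% interval -0.71 to 0.11, adjusted p 0.964). That mean was between -0.53 and -0.08 when 1 array was left out. Its interval with the replicate block was -0.63 to 0.03 (adjusted p 0.411). Pcgf1, the RING-finger subunit of that complex, stood at 0.36 and 0.01 within the sets and so, unlike Kdm2b and Bcor, above control.

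The member with the highest difference was Pcgf5, a RING-finger subunit of another variant complex. It read 7.35 and 7.73 in VPA cells, 7.10 and 7.90 in NaBu cells and 6.83 and 7.61 in control. It was higher than control with either compound in both sets, but the sets themselves lay further apart than the treatments, and the groups overlapped. The VPA difference was 0.32 (95% interval -0.53 to 1.17, adjusted p 0.979), and -0.07 without control replicate 1. Its interval with the replicate block was 0.01 to 0.63 (adjusted p 0.362). Pcgf6, part of a complex that represses germ cell genes, stood at -0.23 and its partner L3mbtl2 at -0.07. Pcgf3 stood at 0.02, and the zinc finger proteins Rybp and Yaf2, which replace Cbx in variant complexes, at -0.08 and 0.09.

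**Figure D2:**
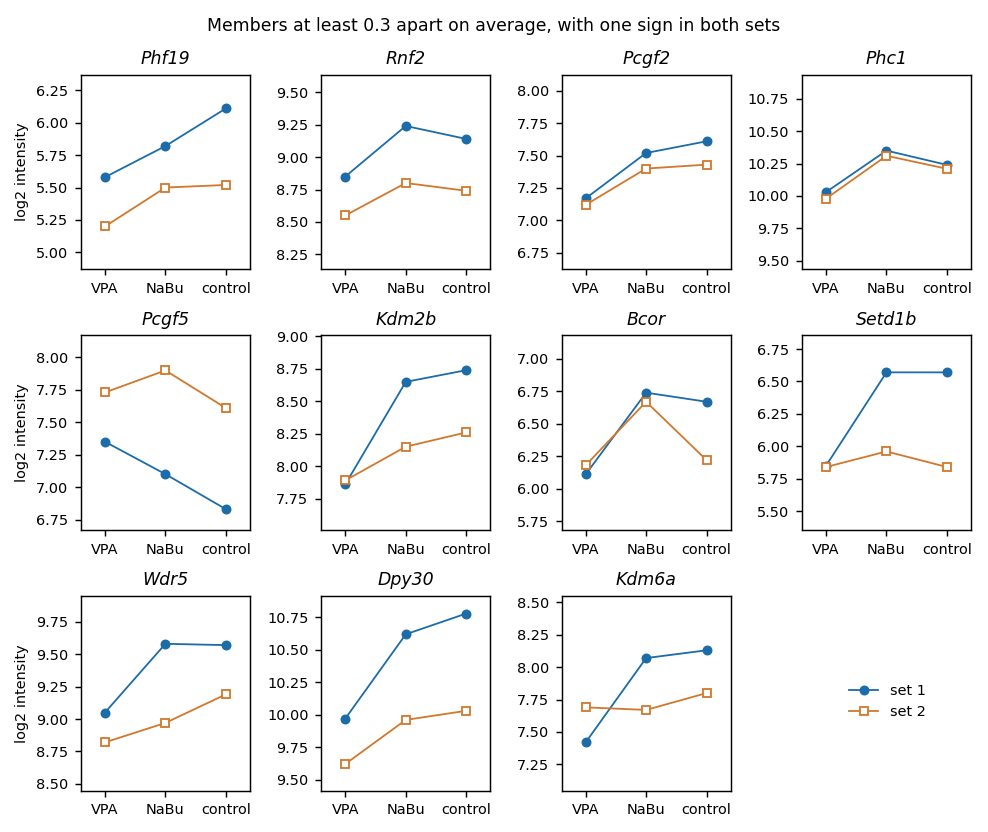
Log2 intensity on each of the 6 arrays for 11 members, with lines that join the arrays of one set (filled circles, set 1; open squares, set 2); each panel spans 1.5 log2 units. For Kdm2b, Pcgf2 and Phc1 both VPA arrays lie below the other 4, while for Pcgf5 set 2 lies above set 1 in every condition.

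Of the 6 enzymes that methylate H3K4, 5 had a difference below 0 with VPA. Kmt2a (Mll1) read 7.65 and 7.70 in VPA cells, 7.52 and 7.97 in NaBu cells and 7.73 and 7.65 in control. Kmt2b (Mll2), the enzyme of bivalent promoters in stem cells, read 7.55 and 7.62 in VPA cells, 7.80 and 7.75 in NaBu cells and 7.72 and 7.45 in control. Both had a VPA difference of about 0, at -0.01 and -0.00, with the sets on opposite sides of 0. Kmt2c, one of the 2 enzymes that mark enhancers, read 7.90 and 7.95 in VPA cells, 7.66 and 8.20 in NaBu cells and 7.80 and 7.90 in control. Kmt2d, the other, read 6.90 and 6.86 in VPA cells, 6.95 and 7.23 in NaBu cells and 7.27 and 7.08 in control. The conditions overlapped for Kmt2c, whereas both VPA values of Kmt2d lay below the other 4. The Kmt2d difference from control was -0.30 (95% interval -0.65 to 0.06, adjusted p 0.964). Setd1a and Setd1b, the catalytic subunits of the Set1 complexes, stood at -0.22 and -0.36, but in set 2 they were at -0.03 and 0.00.

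The 5 subunits of the H3K4 methyltransferase complexes all had a mean difference below 0 with VPA, with a median of -0.23. The median was -0.46 in set 1 and -0.12 in set 2, and 3 of the 5 lay below 0 in both sets. Wdr5, which holds the catalytic core together, read 9.05 and 8.82 in VPA cells, 9.58 and 8.97 in NaBu cells and 9.57 and 9.19 in control. Both VPA arrays lay below both control arrays, but VPA of set 1 lay above NaBu of set 2. The difference from control was -0.44 (95% interval -1.02 to 0.14, adjusted p 0.964), or 0.74 of the control level, and -0.73 to -0.15 with the replicate block (adjusted p 0.23). Without 1 array it lay between -0.63 and -0.25.

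Dpy30, a small subunit needed for full H3K4 methylation, read 9.97 and 9.62 in VPA cells, 10.62 and 9.96 in NaBu cells and 10.78 and 10.03 in control. Both VPA arrays lay below both control arrays, and control itself differed by 0.75 between the sets. The difference was -0.61 (95% interval -1.37 to 0.15, adjusted p 0.964), or 0.65 of the control level, and -0.91 to -0.31 with the replicate block (adjusted p 0.201). Without 1 array it lay between -0.98 and -0.24. Rbbp5, which contacts the enzyme, stood at -0.46 in set 1 and 0.00 in set 2. Ash2l, which activates it, stood at -0.16 and -0.12, and Men1, a subunit particular to the Kmt2a and Kmt2b complexes, at 0.03 and -0.06.

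Among the demethylases, Kdm6a (Utx), which removes H3K27 methylation and sits in the Kmt2c and Kmt2d complexes, read 7.42 and 7.69 in VPA cells, 8.07 and 7.67 in NaBu cells and 8.13 and 7.80 in control. Both VPA values lay below both control values, at -0.71 in set 1 and -0.11 in set 2. The mean difference was -0.41 (95% interval -0.89 to 0.07, adjusted p 0.964), and -0.57 to -0.24 without 1 array. With the replicate block its interval was -0.80 to -0.02 (adjusted p 0.35). Kdm6b (Jmjd3), the other H3K27 demethylase, stood at -0.02 and 0.13. Of the H3K4 demethylases, Kdm5a stood at 0.17 and 0.24 and Kdm5b, its close relative, at -0.26 and -0.04.

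With NaBu the members lay nearer to control. Their median was 0.01, the same as the median of all genes, and 17 of 46 lay below 0 (37%, against 45.7% of all genes). The lowest difference was that of Cbx2 at -0.20 and the highest that of Pcgf5 at 0.28. In 42 of 46 members the difference was under 0.2 in size, and the median size was 0.08, against 0.09 over all genes. In 22 members the sets had opposite signs. Members below 0 in both sets made up 23.9% and those above 0 in both 28.3%, against 23.1% and 29.1% of all genes. In fits with no block the members' median difference was 0.07 without control replicate 1, -0.01 without control replicate 2 and 0.045 without NaBu replicate 2. limma called 0 members and 0% of genes at an adjusted p under 0.05 for NaBu against control, without or with the replicate block. At an unadjusted p under 0.05 it took 0 members and 1.56% of all genes, and with the block 0 members and 4.59% of all genes. The unblocked count was 1 without control replicate 1, against 0.923% of all genes. No member was at least 0.2 lower in both sets (2.32% of all genes), and 1 was higher, Pcgf5 at 0.28 and 0.29 (2.78% of all genes). The 95% interval stayed within 1 log2 unit of 0 for 44 members, against 39 members with VPA, with no share over all genes beside these counts. The feeder markers lay above control in both sets for 13 of 19 genes, with a median of 0.18, and their part in the NaBu values was not tested.

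The members that were lowest with VPA stood near control with NaBu. They were picked for their VPA values in these same arrays, so smaller sizes with NaBu can come from that choice alone. Kdm2b stood at -0.10 (95% interval -0.64 to 0.45), Dpy30 at -0.12, Wdr5 at -0.10, Phf19 at -0.15, Kdm6a at -0.09 and Pcgf2 at -0.06. Bcor stood at 0.26, with 0.07 and 0.44 in the sets, and Kmt2b at 0.19. Cbx2 came from set 2, at -0.37 against -0.04 in set 1, and Pcgf1 stood at 0.56 in set 1 and -0.15 in set 2. The comparisons of VPA and of NaBu share the control arrays.

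VPA was set directly against NaBu, without control arrays in the difference. The compounds were given at different doses, 0.5 mM and 0.2 mM, so the values compare these 2 treatments and not equal amounts. The median of the members was -0.12, with -0.13 in set 1 and -0.12 in set 2. It was 0.00 for all genes and -0.03 for genes at or above the median level. Of 46 members 34 lay below 0 (73.9%, against 49.8% of all genes). In both sets 26 did so (56.5%), against 28.6% of all genes and 36.6% of genes at or above the median level. limma called 0 members and 0% of genes at an adjusted p under 0.05, and the blocked model likewise. At an unadjusted p under 0.05 it took 3 members, Pcgf2, Phc1 and Bcor (6.52%, against 3.63% of all genes). With the replicate block it took 9 (19.6%, against 10.8% of all genes), namely those 3 with Phf19, Rnf2, Kdm2b, Setd1b, Wdr5 and Dpy30, all lower with VPA. These shares of all genes hold both directions, 336 lower and 388 higher without the block and 1051 lower and 1099 higher with it. The unblocked 3 became 0 without VPA replicate 1 (2.12% of all genes) or NaBu replicate 1 (3.57%), and 1 without VPA replicate 2 (4.76%). The members' median was -0.06 without VPA replicate 2 and -0.19 without NaBu replicate 2. The stem cell markers had a median of -0.33 with VPA against NaBu, with 10 of 12 below 0 in both sets, and the feeder markers -0.20, with 15 of 19 below 0, and their part in the members' values was not tested.

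At least 0.2 lower in both sets with VPA than with NaBu were 8 members (17.4%), against 4.95% of all genes and 7.11% of genes at or above the median level. They were Eed, Phf19, Rnf2, Pcgf2, Phc1, Kdm2b, Bcor and Dpy30, and 5 of these are also among the 8 that were lower than control. Both counts use the same VPA arrays, so this overlap is not independent agreement. No member was at least 0.2 higher in both sets, against 4.35% of all genes. With quantile normalization the count was 5, against 4.64% of all genes, and at a size of 0.3 it was 3, against 1.81% of all genes. Bcor had the lowest difference, -0.56 (95% interval -0.97 to -0.15, adjusted p 0.998), with -0.64 and -0.48 in the sets. Phc1 stood at -0.32 and -0.33 in the sets (95% interval of the mean -0.59 to -0.06). Kdm2b stood at -0.53 (95% interval -1.07 to 0.02), Dpy30 at -0.49 (-1.26 to 0.27), Wdr5 at -0.34, Rnf2 at -0.32 and Pcgf2 at -0.32. With the replicate block the intervals were -0.87 to -0.18 for Kdm2b and -0.79 to -0.20 for Dpy30. Those of Bcor and Phc1 were -0.89 to -0.23 and -0.56 to -0.08, and the blocked adjusted p of these genes ran from 0.362 to 0.399. Leaving out 1 array gave -0.78 to -0.28 for Kdm2b, -0.82 to -0.17 for Dpy30, -0.65 to -0.04 for Wdr5 and -0.54 to -0.10 for Rnf2, against -0.60 to -0.52 for Bcor and -0.35 to -0.30 for Phc1.

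The value of Setd1b against NaBu came mostly from set 1. Setd1b read 5.85 and 5.84 in VPA cells, 6.57 and 5.96 in NaBu cells and 6.57 and 5.84 in control. The VPA arrays of both sets and the control array of set 2 lay at the same level, and the difference of VPA from NaBu, -0.41, came from -0.71 in set 1 and -0.11 in set 2. It lay between -0.72 and -0.11 without 1 array. A second Setd1b probeset gave -0.29 and 0.11 in the sets against NaBu, with a mean of -0.09. With the mean of the gene's probesets the difference was -0.25.

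**Figure D3:**
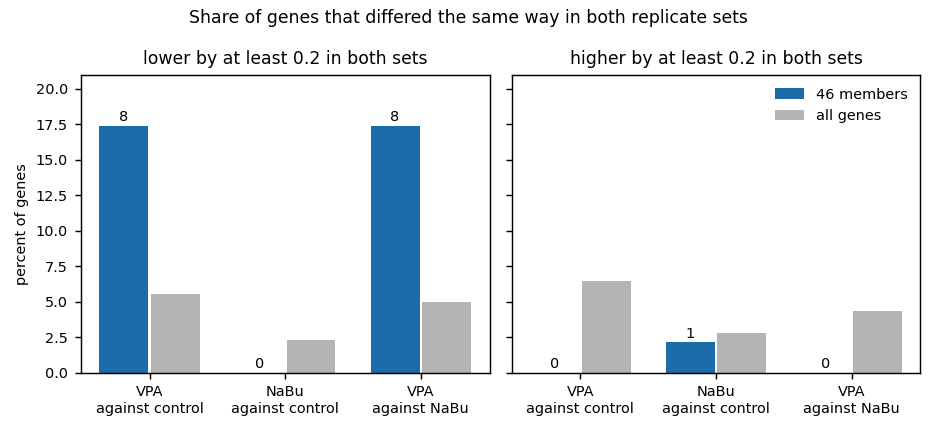
Percent of the 46 members (blue) and of all 19938 genes (grey) that were at least 0.2 lower (left) or higher (right) in both sets, with the number of members above each blue bar. Members reached 17.4% lower in the comparisons of VPA with control and with NaBu, against 5.51% and 4.95% of all genes, and no member was higher in either. These comparisons share the VPA arrays.

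Many members had a larger set difference than treatment difference, but these sizes are unlike measures. The set size is the mean over the 3 conditions of differences taken without sign. The treatment size is that of a signed mean over the sets, in which opposite values cancel, so it tends to be smaller. The set size had a median of 0.22 over the members, with no value over all genes beside it. The treatment size had a median of 0.14 for VPA and 0.08 for NaBu against control (0.12 and 0.09 over all genes). The set size exceeded the VPA size in 31 of 46 members. In all 3 conditions 21 members were lower in set 2 (45.7%, against 23.5% of all genes) and 9 were higher (19.6%, against 23.2%). L3mbtl2, set 2 minus set 1, stood at -0.86 in VPA, -0.92 in NaBu and -0.79 in control, and its VPA and NaBu differences from control were -0.07 and -0.01. Ash2l stood at -0.47, -0.59 and -0.51 in VPA, NaBu and control, and Bmi1 at -0.37, -0.81 and -0.50. Pcgf5 was higher in set 2 by 0.38, 0.80 and 0.78, and Kdm6b by 0.47, 0.79 and 0.32. For Kdm2b, Rbbp5 and Setd1b the NaBu and control arrays of set 2 stood at -0.42 or lower, but the VPA arrays differed by 0.03, 0.04 and -0.01. Feeder fibroblast markers were higher in set 2, with a median of 0.62 in VPA, 0.50 in NaBu and 0.41 in control, and stem cell markers lower, with medians of -0.08, -0.14 and -0.26. The part of the feeder layer in these values was not tested.

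**Figure D4:**
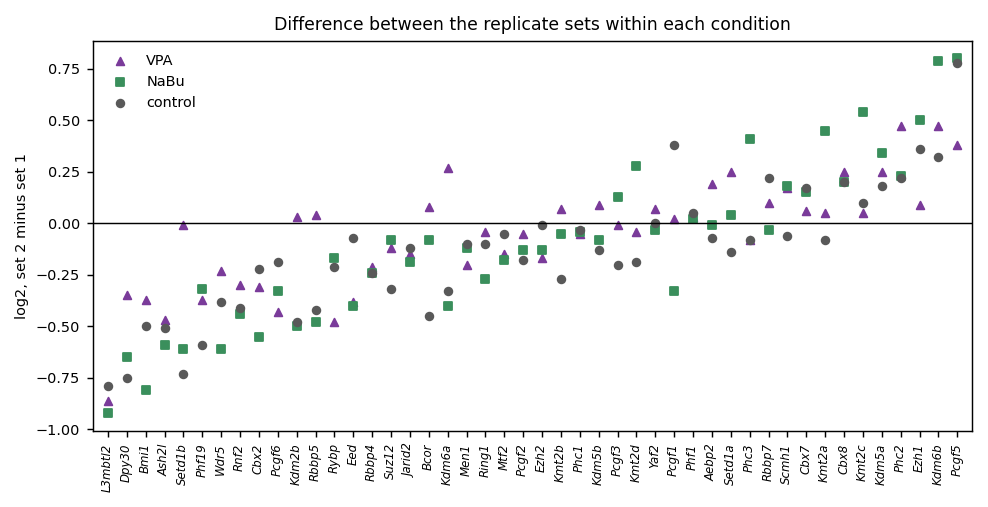
Log2 difference of set 2 minus set 1 for each of the 46 members in VPA (triangles), NaBu (squares) and control (circles), ordered by the mean over the 3 conditions. L3mbtl2 lies lowest, between -0.92 and -0.79, and Pcgf5 highest, between 0.38 and 0.80, while the VPA points of Kdm2b, Rbbp5 and Setd1b lie near 0, above their NaBu and control points.

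Other Polycomb and Trithorax genes also lay more often below control than above it with VPA. Of 37 written symbols 34 were measured, and 26 lay below 0 (76.5%, against 47% of all genes), with a median of -0.14. limma called 0 at an adjusted p under 0.05 and took 1 at an unadjusted p under 0.05 (4.92% of all genes), or 6, all lower, with the replicate block (13.2% of all genes). Of all genes the blocked model took 1198 lower and 1438 higher. With NaBu the median was 0.00. Uty, the Y-linked paralog of Kdm6a, had the largest statistic with VPA. It read 6.42 and 6.38 in VPA cells, 7.13 and 6.89 in NaBu cells and 7.14 and 6.83 in control. Both VPA arrays lay below the other 4, with a difference from control of -0.58 (95% interval -0.96 to -0.21, adjusted p 0.964). Asxl2, a partner of the H2A deubiquitinase Bap1, stood at -0.31 and Zfp518b at -0.42 with VPA. With NaBu the 3 genes with the largest statistics were Max at 0.10, Asxl2 at -0.13 and Auts2 at 0.10.

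Genes known as Polycomb targets in stem cells had a median above 0 with VPA. Of 42 written developmental regulators 38 were measured, with a median of 0.05 with VPA and -0.07 with NaBu. The median of all genes was 0.01 in both comparisons. With VPA 25 lay above 0 and 13 below (34.2%, against 47% of all genes). In both sets 14 lay above 0 (36.8%, against 32% of all genes) and 6 below (15.8%, against 28%). Only 2 of 38 were at least 0.2 higher in both sets and 2 of 38 lower, against 6.47% and 5.51% of all genes. limma called 0 at an adjusted p under 0.05 and took 0 at an unadjusted p under 0.05 (4.92% of all genes). The blocked model took 2 higher and 2 lower at an unadjusted p under 0.05 (13.2% of all genes). Otx1, a homeobox gene of the forebrain, stood at 0.26 (95% interval -0.02 to 0.53), Lhx5 at 0.23 and the organizer gene Gsc at -0.30, each with one sign in both sets. Against NaBu, VPA had a median of 0.13 over these genes and 0.00 over all genes, and the doses differ. Of the 38, 27 lay above 0 and 11 below (28.9%, against 49.8% of all genes). At an unadjusted p under 0.05 limma took 4, all higher (3.63% of all genes), or 6 higher and 1 lower with the replicate block (10.8% of all genes). Of all genes it took 388 higher and 336 lower, or 1099 higher and 1051 lower with the block. With NaBu against control the largest statistics were those of Dlx1 at -0.29, Nkx2-2 at -0.20 and Msx1 at -0.20. Most of these named genes read low. Over the arrays Otx1 lay at 4.30 to 4.77, Lhx5 at 3.63 to 4.06, Dlx1 at 4.29 to 4.85 and Nkx2-2 at 3.93 to 4.21. Gsc lay at 5.26 to 5.63 and Msx1 at 5.59 to 5.93, and the median gene of each array at 5.71 to 5.79. Whether differences at such low levels exceed background was not tested.

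For comparison, the stem cell markers with the largest statistics with VPA were Pou5f1 at -0.64, Utf1 at -0.59 and Fgf4 at -0.86, and with NaBu Sox2 at -0.18, Pou5f1 at -0.14 and Dppa4 at 0.10. Feeder markers had a median of 0.04 with VPA, with -0.08 in set 1 and 0.18 in set 2. Fap stood at 0.32, S100a4 at -0.47 and Col5a1 at 0.22 with VPA, and Acta2 at 0.28, Fap at 0.25 and Tagln at 0.30 with NaBu.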

How the data were processed

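Expression was measured on Affymetrix arrays in 6 samples, 2 each of VPA, NaBu and control. The deposited values are log2 expression per probeset. The submitters' processing notes name RMA and Affymetrix Expression Console 1.1, and neither the RMA settings nor a genome build is given in the sources used here. Of 35556 probesets 21789 carried a single symbol and 1621 several, by GEO's platform annotation, which gave 19938 genes after the highest-mean probeset was kept for each. The labels do not say whether replicates are separate cultures, so p-values measure the spread between these samples only, and the number of arrays limits the precision.

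Comparisons used R 4.3.3 with limma 3.58.1 (lmFit and eBayes), fitted over all genes with 1 mean per group, which leaves 3 residual degrees of freedom, and Benjamini-Hochberg adjustment at 0.05; intervals are 95% intervals from this unblocked model unless said. The deviations of same-numbered arrays from their group means correlated across genes with r = 0.558 for VPA and control, 0.693 for NaBu and control and 0.567 for VPA and NaBu, so the number was used as a block (2 residual degrees of freedom) in an alternative model. This pairing was read from the values, not from the labels. With 2 arrays on each side an exact permutation test (two-sided) cannot go below 0.333 and was not run. Members were given array by array where both within-set differences had one sign and the mean difference was at least 0.3 in size, and a few core subunits in any case. The interval of Phc1 against control and the control values of Setd1b were added after their values were seen. Of the other lists the 3 genes with the largest statistic per compound are named. The members, lists and rules were chosen with earlier results of these data known. The promoters are those of RefSeq. The procedure was tested on simulated data with added changes larger than the difference of any member. That test does not show how often differences of the sizes given here would be called. Alternatives changed the block, the scaling, the filter on dim genes, the variance model, the probeset rule and the arrays included.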

Additional observations from a re-analysis of the deposited data

Results flagged for a closer look

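In 5 of 46 members both VPA arrays lay on one side of their same-set control and both NaBu arrays on the other, as they did in 7.21% of all genes (10.9% of the members). All 5 were lower with VPA and higher with NaBu. The difference of VPA from NaBu was -0.56 for Bcor, -0.32 for Phc1, -0.32 for Rnf2, -0.20 for Kdm5b and -0.18 for Cbx7. None passed limma's test of that difference, with an adjusted p of 0.998 for each, and of 0.362 for Bcor, 0.399 for Phc1, 0.407 for Rnf2, 0.547 for Kdm5b and 0.582 for Cbx7 with the replicate block. For Phc1 the sets were even, at -0.21 and -0.23 with VPA and 0.11 and 0.09 with NaBu. For Bcor they were not, at -0.56 and -0.04 with VPA and 0.07 and 0.44 with NaBu. The sizes for Kdm5b (-0.26 and -0.04 with VPA, 0.03 and 0.08 with NaBu) and Cbx7 (-0.03 and -0.13, 0.10 and 0.09) include values near 0. The 2 comparisons share the control arrays.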

How the results depend on the processing

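limma called 0 genes in each of the 3 comparisons under every alternative run, with 981, 311 and 724 genes at an unadjusted p under 0.05 without the block for VPA, NaBu and VPA against NaBu. With the replicate block the members at an unadjusted p under 0.05 were 7 for VPA and 9 for VPA against NaBu, against 2 and 3 without it. Leaving out 1 array gave 0 to 6 for VPA, 0 to 1 for NaBu and 0 to 3 for VPA against NaBu. The members' median then ran from -0.184 to -0.027 for VPA, from -0.008 to 0.071 for NaBu and from -0.189 to -0.055 for VPA against NaBu. It was -0.157 with centred arrays, -0.093 after quantile normalization and -0.136 with the mean of a gene's probesets in the last comparison. These fits have no block, so part of the set difference enters them. A size of 0.3 or 0.1 in place of 0.2 gave 5 or 13 members lower with VPA (2.14% or 13.1% of all genes) and 3 or 19 lower against NaBu (1.81% or 13.1%). At 0.3 there were 0 higher with NaBu (0.717% of all genes), and at 0.1 there were 3 higher with VPA (15.4%) and 1 lower with NaBu (8.1%). Quantile normalization gave 5 lower against NaBu, and probeset means gave 2 higher with NaBu. Pcgf5 with VPA ran from -0.07 to 0.71 when 1 array was left out. The -0.07 sets the VPA mean of both sets, 7.54, against control of set 2 alone, 7.61. Within the sets Pcgf5 stood at 0.52 and 0.12, and the cause of its set difference was not tested. The other 15 differences given array by array kept their sign but many moved in size, such as Wdr5 against NaBu from -0.65 to -0.04 and Phf19 from -0.71 to -0.12. The values carry no detection call, and Phf19 and Cbx8 were the 2 members below the median gene.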

Other observations

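A second probeset existed for 6 members. For Kmt2d it gave -0.28 with VPA, against -0.30 for the one used, and for Rbbp7 0.13 against 0.09. For Setd1b it gave -0.31 and -0.18 in the sets for VPA against control, where the one used gave -0.72 and 0.00. For VPA against NaBu it gave -0.29 and 0.11, with the other sign in set 2, where the one used gave -0.71 and -0.11. For Rybp the VPA difference was 0.11 against -0.08, with the other sign, and for Phc3 the NaBu difference was 0.47 against 0.12.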
